A study of Mus musculus with 20 samples.

Results

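The Polycomb group genes encode the subunits of the chromatin complexes PRC2, PRC1 and PR-DUB. A list of 34 gene symbols was matched to the gene names of the deposited table, and all 34 were found among its 15757 genes. By role, 6 of them encode PRC2 core subunits, 5 encode PRC2 accessory subunits, 2 encode the RING ligases of PRC1 and 6 encode PCGF subunits. A further 4 encode CBX readers, 5 encode PHC and SCM subunits, 4 encode subunits of variant PRC1 and 2 encode partners of the PR-DUB deubiquitinase. Messenger RNA was measured in mouse embryonic fibroblasts from the OG2 strain, which carries a green fluorescent reporter of Oct4 (Pou5f1), taken at passage 2 and infected with retroviruses for the factors that the labels abbreviate OSKM (Oct4, Sox2, Klf4 and Myc). The cells were kept in the serum-free medium iCD1. All groups carried the factors according to their labels, day 0 included. The control arm carried a short hairpin RNA against luciferase, which has no target in mouse cells, and the other arm a hairpin against Ddx10, a DEAD box RNA helicase gene. Each arm was sampled at days 0, 1, 3, 5 and 7 of reprogramming with 2 libraries per arm and day, which gives 20 libraries in 10 groups. Only 1 hairpin per arm is named, no rescue is described, and the labels give neither sex nor age of the embryos nor whether libraries of a group came from separate cultures. The p-values therefore measure the spread between these samples, which may be technical.

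PRC2 places methyl groups on lysine 27 of histone H3, a mark of silent developmental genes. Its catalytic subunit is EZH2 or the paralog EZH1, which needs EED and SUZ12 to act. Accessory subunits divide PRC2 into a form with JARID2 and AEBP2 and a form with a Polycomb-like protein (PHF1, MTF2 or PHF19), and they help to bring the complex to CpG-rich DNA. PRC1 attaches ubiquitin to histone H2A through RNF2 (RING1B) or RING1 together with a PCGF protein. In canonical PRC1 a CBX protein reads the methylated histone and PHC proteins compact chromatin, whereas variant PRC1 carries RYBP or YAF2 in place of CBX. PR-DUB removes ubiquitin from H2A and consists of BAP1 with an ASXL protein. In pluripotent cells these complexes keep lineage genes silent, and reprogramming of fibroblasts is known to depend on PRC2.

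Values were normalized read counts, called levels here. Column sums and the smallest steps of the values put the sequencing depth at about 12.0 to 23.7 M reads per library. Replicate correlations of log2 values over all genes lay between 0.981 and 0.989. The replicates of control day 1 stood apart, with a median absolute log2 difference of 0.252 against 0.118 to 0.162 in the other 9 groups, and counts of calls that rest on these libraries are also given without them. Ddx10 checked the labels. Its mean level in the control arm was 512, 862, 822, 762 and 815 from day 0 to day 7 and in the knockdown arm 316, 288, 331, 441 and 529. The knockdown libraries were below the control libraries at every day, with log2 differences of -0.69, -1.58, -1.31, -0.79 and -0.62 (highest adjusted p = 0.0072). The sum of 10 fibroblast markers dropped in the control arm from 631432 and 598378 at day 0 to 91915 and 94467 at day 7. The sum of 10 epithelial markers rose from 301 and 253 to 23862 and 22073. Of the 10 fibroblast markers 8 were called lower and 1 higher in the control arm. In the knockdown arm 8 were lower and 2 higher. All 10 epithelial markers were higher in each arm. Of 12 pluripotency markers, all 12 were higher at day 7 than at day 0 in each arm, so the labelled course from fibroblasts towards pluripotent cells is visible in these genes. In bulk RNA, fewer cells of a type and less RNA per cell cannot be told apart, which holds for every level below.

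In the control arm 26 of the 34 Polycomb genes differed between day 7 and day 0 (limma, adjusted p under 0.05), 19 of them higher and 7 lower. Of all genes tested, 72.3% differed (38.6% higher and 33.7% lower), so the share of the Polycomb genes (76.5%) was near that background. The libraries of the 2 days did not overlap for 31 members, against 86.8% of all genes. The median log2 change of the members was 0.38 and that of all genes 0.09, and the median absolute change was 0.60 for the members and 0.82 for all genes. Quantile scaling shifted the median of all genes from 0.09 to -0.08 and gave 15 higher and 9 lower members. The column sums of the levels were 21.3 and 20.8 M at control day 0 and 15.7 and 15.7 M at control day 7. A fit scaled to equal sums, which would shift these changes upwards, was not run. The largest rises were those of Jarid2 (log2 change 3.18), Mtf2 (2.35), Scml2 (1.88), Suz12 (1.65) and Ezh1 (1.64), and the largest falls those of Yaf2 (-1.67), Phc2 (-1.18) and Phf19 (-1.05).

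**Figure D1:**
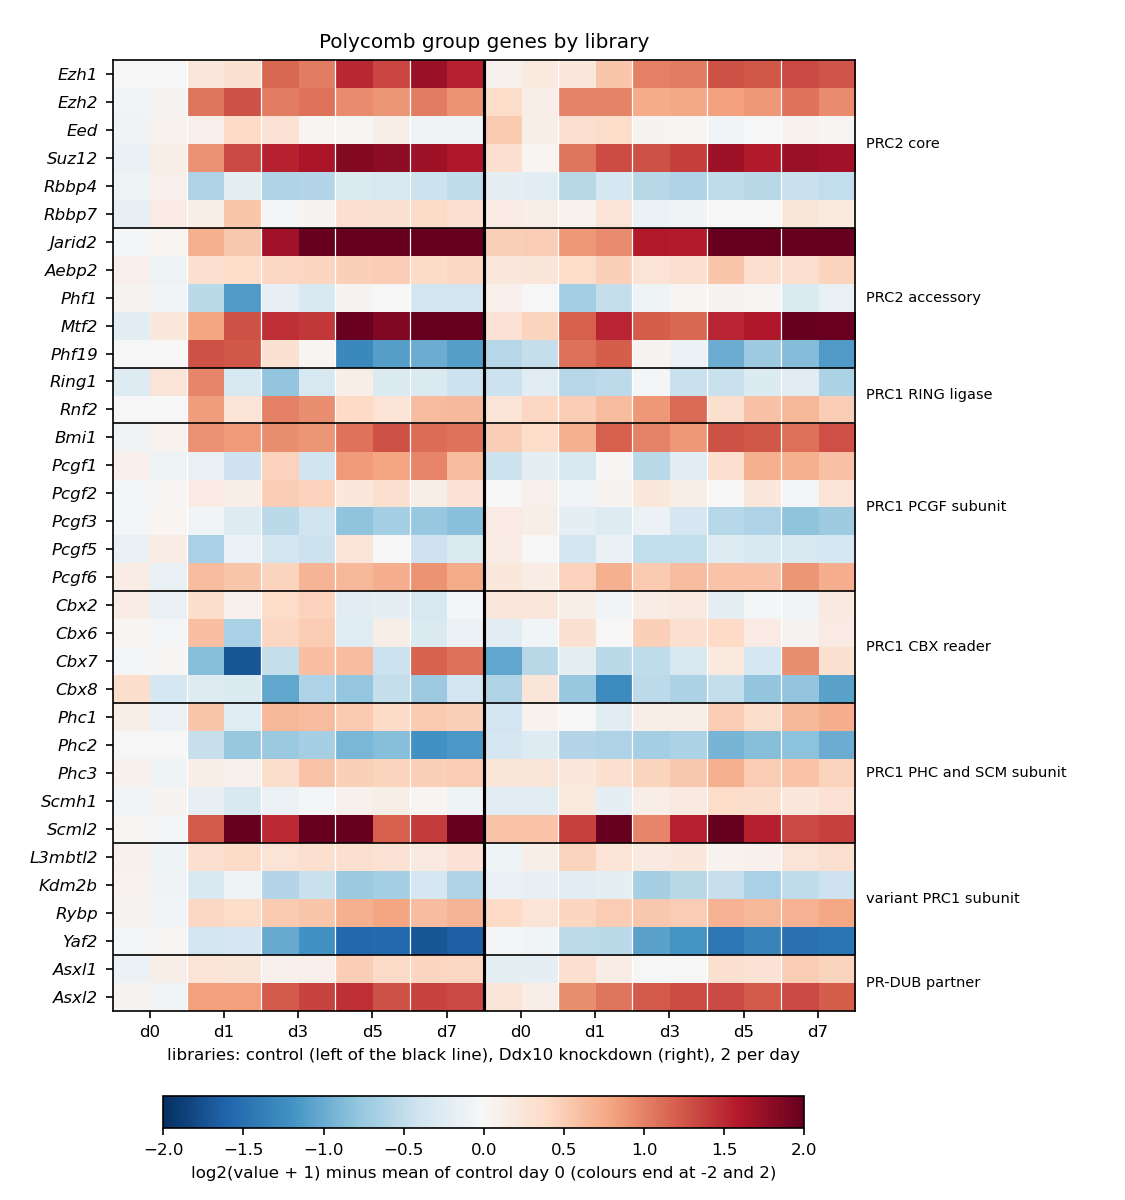
Heat map of log2(level + 1) of the 34 Polycomb genes (rows, by role) in the 20 libraries (columns, control left and knockdown right, 2 per day), minus the gene's mean at control day 0; colours end at -2 and 2. Jarid2, Mtf2, Suz12 and Ezh1 turn red with the days in each arm, and Yaf2 and Phc2 turn blue.

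From day 0 to day 1 of the control arm 21 members differed, 16 higher and 5 lower, beside 55% of all genes. The members with the smallest p were Ezh2, Asxl2, Suz12, Phf19, Bmi1, Phc2, Mtf2 and Jarid2, and these 8 calls held without either library of control day 1, when 22 members were called in each case. In the same step 22 of 24 S phase genes and 23 of 24 genes of G2 and mitosis were higher, with median log2 changes of 0.70 and 1.32, and the part of this cell cycle shift in the Polycomb changes was not tested. E2F factors are known regulators of S phase genes, so the promoters of the members were searched for 4 spellings of the E2F site on either strand: TTTCCCGC, TTTGGCGC, TTTCGCGC and TTTGCCGC. Promoters were taken from RefSeq (GRCm38.p6) as 250 bases before to 50 bases after each annotated start, and 42 promoters of 30 members were found by symbol; Cbx2, Pcgf1, Rybp and Yaf2 had none. A match was present in 3 of the 30 genes, beside 704 of 27025 genes overall (2.61%). The 3 genes are Ezh2, Suz12 and Phf19. All of them are among the 16 of 34 members called higher at day 1, of which Rybp had no promoter to search. Members without a match were also called higher, such as Asxl2, Bmi1, Mtf2 and Jarid2. Whether a match and a rise go together was not tested. The promoters of Ezh2, Suz12 and Phf19 are shown 5′ to 3′ on the gene's strand with the matched letters in capitals.
Ezh2, chr6:47594981-47595280, minus strand: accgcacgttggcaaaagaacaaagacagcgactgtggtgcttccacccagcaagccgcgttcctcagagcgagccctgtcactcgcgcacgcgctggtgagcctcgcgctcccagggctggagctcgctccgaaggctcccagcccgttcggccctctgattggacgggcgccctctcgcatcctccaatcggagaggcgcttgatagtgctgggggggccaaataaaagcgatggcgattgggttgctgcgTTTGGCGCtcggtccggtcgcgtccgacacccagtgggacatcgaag
Suz12, chr11:79992856-79993155, plus strand: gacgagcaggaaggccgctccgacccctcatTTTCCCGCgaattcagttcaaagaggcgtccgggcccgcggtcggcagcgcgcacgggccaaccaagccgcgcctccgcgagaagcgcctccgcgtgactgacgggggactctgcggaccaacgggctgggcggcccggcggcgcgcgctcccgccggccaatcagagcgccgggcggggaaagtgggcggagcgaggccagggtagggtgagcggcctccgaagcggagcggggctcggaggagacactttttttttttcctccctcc
Phf19, chr2:34913927-34914226, minus strand: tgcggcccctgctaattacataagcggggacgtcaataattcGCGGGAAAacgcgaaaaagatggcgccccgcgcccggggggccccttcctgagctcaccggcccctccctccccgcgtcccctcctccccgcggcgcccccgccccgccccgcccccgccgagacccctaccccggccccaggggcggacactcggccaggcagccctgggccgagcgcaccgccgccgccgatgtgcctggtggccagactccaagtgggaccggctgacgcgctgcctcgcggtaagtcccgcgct
Counted from the annotated start, the Ezh2 match TTTGGCGC begins at position 3, the Suz12 match TTTCCCGC at position -219, and the Phf19 match GCGGGAAA, the reverse complement of TTTCCCGC, at position -208. These letters describe the sequence and are not evidence of binding. The promoters were rich in CpG, with 31, 41 and 38 CpG in these 3 windows, and the median over the 42 member promoters was 23.5 beside 7 over all promoters. The background of 2.61% was not matched for CpG, so the shares of genes with a match are not a like comparison.

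The catalytic subunits of PRC2 followed different courses. Ezh2 (ENSMUSG00000029687, chromosome 6, 47530139 to 47595341), the main methyltransferase of dividing cells, had levels of 559 and 605 in the control libraries of day 0, 1222 and 1406 at day 1, 1179 and 1230 at day 3, 1117 and 1071 at day 5, and 1185 and 1085 at day 7. Its rise took place by day 1 (log2 change 1.17, SE 0.093, adjusted p = 4.719e-08), and the later steps were -0.12, -0.14 and 0.05 with no call. Ezh1, the paralog that is more common in resting cells, had levels of 510 and 505 at day 0, 596 and 627 at day 1, 1132 and 1032 at day 3, 1440 and 1285 at day 5, and 1685 and 1483 at day 7. It rose most from day 1 to day 3 (0.82, SE 0.10, adjusted p = 1.449e-05), and its total change to day 7 was 1.64 (adjusted p = 8.192e-10), beside 0.96 for Ezh2 (adjusted p = 1.289e-07). The log2 ratio of Ezh2 to Ezh1 within a library, which is not corrected for gene length, was 0.13 and 0.26 at control day 0. It reached 1.03 and 1.16 at day 1 and was -0.51 and -0.45 at day 7. The ratio at day 7 lay below that at day 0 in both replicates.

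Suz12 (ENSMUSG00000017548, chromosome 11, 79993106 to 80034123), the scaffold of PRC2, had levels of 912 and 1089 at day 0, 1887 and 2478 at day 1, 2906 and 3095 at day 3, 3581 and 3455 at day 5, and 3232 and 3015 at day 7. It rose at day 1 (1.12, SE 0.13, adjusted p = 2.191e-06) and again at day 3 (0.47, adjusted p = 0.00819), and the second of these calls was lost without control replicate 1 of day 1 or control replicate 2 of day 3 (highest adjusted p = 0.107) and in a fit of the 4 libraries alone (adjusted p = 0.0760). Eed, which binds the methylated histone tail and activates the enzyme, was not called. Its levels were 631 and 697 at day 0, 711 and 871 at day 1, 810 and 678 at day 3, 671 and 721 at day 5, and 630 and 634 at day 7. No control step of Eed was called with all libraries, but without control replicate 1 of day 1 the first step was 0.39 and called (adjusted p = 0.0253). Its change to day 7 was -0.07 (95% interval -0.33 to 0.20). The histone chaperones Rbbp4 and Rbbp7, which also serve other chromatin complexes, were called in opposite directions. From day 0 to day 7 Rbbp4 changed by -0.47 and Rbbp7 by 0.35, but the first call was lost under quantile scaling (-0.08) and the second without control replicate 1 of day 0 (0.20) or of day 7 (0.32; highest adjusted p = 0.170).

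**Figure D2:**
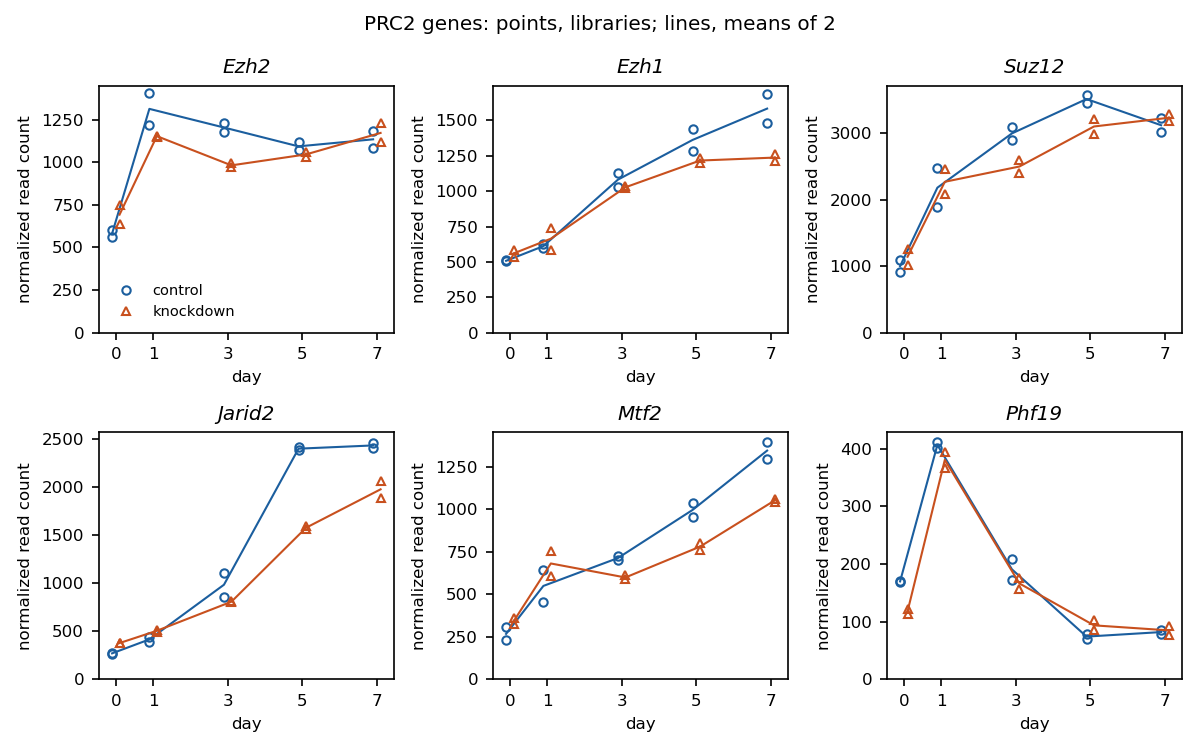
Level (normalized read count, linear axis from 0) of 6 PRC2 genes against the day of reprogramming, with a point for each library and a line through the mean of the 2 libraries in each arm. Phf19 peaks at day 1 in both arms and Ezh2 in the control, Ezh1, Suz12, Jarid2 and Mtf2 are higher at day 7 than at day 0 in each arm, and the Jarid2 curves of the arms cross between day 1 and day 3.

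Among the accessory subunits, Jarid2 had the largest rise of all 34 members. Jarid2 (ENSMUSG00000038518, chromosome 13, 44729474 to 44921643) encodes a protein of the Jumonji family without demethylase activity that helps to recruit PRC2. Its control levels were 262 and 275 at day 0, 438 and 389 at day 1, 860 and 1107 at day 3, 2385 and 2420 at day 5, and 2461 and 2411 at day 7. The steps of 0.62 at day 1, 1.24 at day 3 and 1.30 at day 5 were each called (SE 0.099, adjusted p = 7.277e-05, 1.285e-07 and 2.649e-07), and the last step was 0.02 with no call. Mtf2, the Polycomb-like subunit of embryonic stem cells, had levels of 228 and 304 at day 0, 456 and 641 at day 1, 724 and 701 at day 3, 1039 and 952 at day 5, and 1394 and 1297 at day 7. It rose by 1.03 at day 1 (adjusted p = 3.094e-05), and by 0.48 from day 3 to day 5, a call that was lost without any of the 4 libraries of that step (highest adjusted p = 0.141). The other Polycomb-like genes went other ways. Phf19 had levels of 169 and 171 at day 0, 411 and 402 at day 1, 209 and 172 at day 3, 69.0 and 78.6 at day 5, and 84.9 and 78.5 at day 7. It rose at day 1 (1.26, SE 0.15, adjusted p = 3.844e-06) and fell in each of the next steps (-1.10 and -1.35, adjusted p = 3.374e-05 and 8.568e-06). Phf1 fell from 329 and 307 at day 0 to 218 and 145 at day 1 (-0.83) and rose to 282 and 256 at day 3 (0.59), the latter a call lost without control replicate 2 of day 1 (0.30, adjusted p = 0.0864) and in a fit of the 4 libraries alone (adjusted p = 0.120). Aebp2, the partner of JARID2, rose by 0.40 from day 0 to day 7, from 2085 and 1828 to 2539 and 2604.

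Of the ubiquitin ligases of PRC1, Rnf2 was higher at control day 7 than at day 0 and Ring1 was not called. Rnf2, the main ligase of PRC1, had levels of 1090 and 1074 at day 0, 1931 and 1306 at day 1, 2187 and 2053 at day 3, 1429 and 1304 at day 5, and 1679 and 1703 at day 7. It fell from day 3 to day 5 (-0.63, SE 0.15, adjusted p = 0.00411) and was higher at day 7 than at day 0 (0.64, adjusted p = 0.00101), while its rise at day 1 (0.55) was lost without control replicate 1 of that day (0.27, adjusted p = 0.0824). Ring1, its paralog, had levels of 318 and 452 at day 0, 747 and 303 at day 1, 220 and 303 at day 3, 411 and 310 at day 5, and 309 and 281 at day 7. The 747 of control replicate 1 of day 1 lies apart from the other 9 control values, which span 220 to 452. The call for a fall of Ring1 from day 1 to day 3 (-0.88) was lost without that library (-0.23) and without either library of day 3 (highest adjusted p = 0.525). Without replicate 2 of control day 1, Ring1 was called higher at day 1 than at day 0 (0.98, adjusted p = 0.00607).

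Of the 6 PCGF genes, which set the type of PRC1, 4 were called between day 0 and day 7 of the control arm, beside 72.3% of all genes. Bmi1 (Pcgf4), a subunit of canonical PRC1 and a repressor of the Ink4a locus, had levels of 536 and 585 at day 0, 1057 and 1013 at day 1, 1071 and 1035 at day 3, 1190 and 1358 at day 5, and 1210 and 1192 at day 7. Its rise came at day 1 (0.88, SE 0.12, adjusted p = 1.95e-05), and no later step was called. Pcgf2 (Mel18), the alternative canonical subunit, stayed between 378 and 540 in all 10 control libraries and was not called from day 0 to day 7 (0.20). The log2 ratio of Pcgf2 to Bmi1 was -0.50 and -0.60 at control day 0 and -1.54 and -1.36 at day 7. Pcgf6, which joins the MGA and MAX form of variant PRC1 in stem cells, rose from 195 and 157 to 328 and 295 (0.83). Pcgf3 fell from 2857 and 3005 to 1730 and 1637 (-0.80). Pcgf1, the subunit of the KDM2B and BCOR form, went from 82.4 and 72.0 to 153 and 121 (0.81), but this call was lost under quantile scaling (0.24, adjusted p = 0.414) and without control replicate 2 of day 0 (0.71) or control replicate 1 of day 7 (0.64). Pcgf5 changed by -0.35, with no call. It was called lower under quantile scaling (-0.76, adjusted p = 0.000637) and without control replicate 1 of day 0 (-0.50, adjusted p = 0.0419).

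Of the 4 CBX readers of canonical PRC1, 1 was called between day 0 and day 7 of the control arm, beside 72.3% of all genes. Cbx7, the main CBX protein of embryonic stem cells, had low levels of 83.9 and 86.9 at day 0, 46.6 and 25.3 at day 1, 60.9 and 130 at day 3, 132 and 63.0 at day 5, and 195 and 185 at day 7. Its 2 libraries of day 7 were above all 8 other control libraries. The rise from day 0 to day 7 was 1.15 (SE 0.40, adjusted p = 0.0175), and the call was lost without any of the 4 libraries (highest adjusted p = 0.169) and under quantile scaling (0.66). Cbx2, a reader linked to differentiation and able to compact chromatin by itself, had levels of 368 and 301 at day 0, 423 and 354 at day 1, 429 and 460 at day 3, 288 and 291 at day 5, and 266 and 323 at day 7. It fell from day 3 to day 5 (-0.62, SE 0.13, adjusted p = 0.00243), and its change from day 0 to day 7 was -0.18 (95% interval -0.47 to 0.10), which under quantile scaling was -0.33 and called (adjusted p = 0.0378). Cbx6 ranged from 1802 to 4291 in the control arm, and both extremes belong to the replicates of control day 1. Cbx8 went from 301 and 186 at day 0 to 142 and 182 at day 7 (-0.55), with no call. Without control replicate 2 of day 0 this change was -0.90 (adjusted p = 0.0215) and under quantile scaling -0.89 (adjusted p = 0.00817), both called. Cbx2 and Cbx8 are neighbours on chromosome 11, 5.0 kb apart, and Cbx6 and Cbx7 lie 81.1 kb apart on chromosome 15.

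The Polyhomeotic genes, whose products join PRC1 particles through SAM domains, changed in opposite directions. Phc2 (ENSMUSG00000028796, chromosome 4, 128654702 to 128752881) had levels of 3849 and 3797 at day 0, 2765 and 2263 at day 1, 2282 and 2423 at day 3, 2028 and 2114 at day 5, and 1648 and 1728 at day 7. It fell at day 1 (-0.61, SE 0.086, adjusted p = 2.142e-05) and was lower at day 7 than at day 0 (-1.18, adjusted p = 4.844e-09). Phc1, the paralog of embryonic stem cells, went from 576 and 493 to 768 and 745 (0.50), and this call was lost without control replicate 2 of day 0 or either library of day 7 (highest adjusted p = 0.163). Phc3 rose from 1428 and 1274 to 1880 and 1921 (0.49). The log2 ratio of Phc1 to Phc2 moved from -2.74 and -2.94 at day 0 to -1.10 and -1.21 at day 7. Scml2 rose from 26.3 and 25.2 to 69.5 and 137 (1.88), a call lost under quantile scaling (1.05, adjusted p = 0.0610). Scmh1, a further subunit with a SAM domain, did not change in a called way (-0.03).

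**Figure D3:**
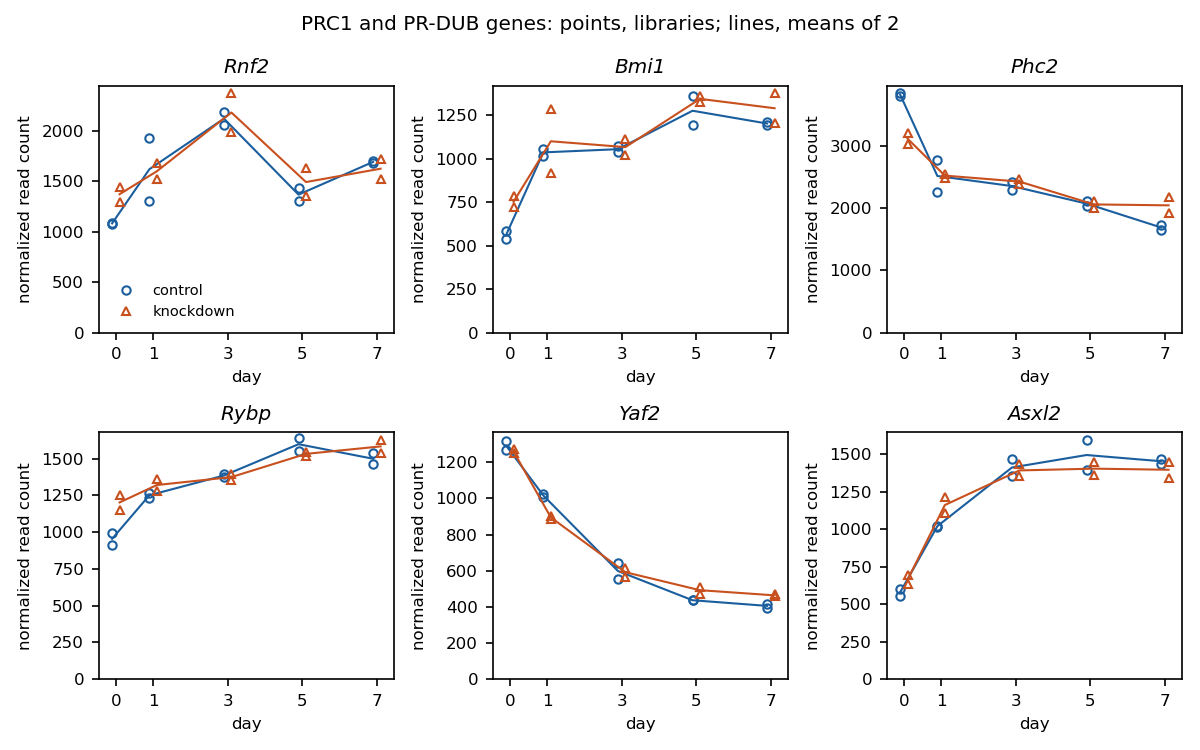
Level (normalized read count, linear axis from 0) of 6 PRC1 and PR-DUB genes against the day of reprogramming, with a point for each library and a line through the mean of the 2 libraries in each arm. Yaf2 and Phc2 are lower at day 7 than at day 0 in each arm, Bmi1, Rybp and Asxl2 are higher, and the 2 control points of Rnf2 at day 1 lie far apart.

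In variant PRC1 the homologs Rybp and Yaf2, which stimulate the ligase and occupy the same site on RING1 proteins, changed in opposite directions. Yaf2 had levels of 1267 and 1319 at day 0, 1007 and 1026 at day 1, 640 and 556 at day 3, 435 and 438 at day 5, and 396 and 414 at day 7. Each of the first 3 steps was called (-0.35, -0.77 and -0.45), although the first was not in a fit of its 4 libraries alone (adjusted p = 0.0585), and the change to day 7 was -1.67 (SE 0.083, adjusted p = 4.06e-11). Rybp had levels of 992 and 915 at day 0, 1267 and 1234 at day 1, 1372 and 1397 at day 3, 1554 and 1641 at day 5, and 1463 and 1535 at day 7, a rise of 0.65 (SE 0.070, adjusted p = 4.993e-07). The log2 ratio of Rybp to Yaf2, a pair chosen after its values were seen, was -0.35 and -0.53 at control day 0 and 1.88 and 1.89 at day 7. Kdm2b, which binds unmethylated CpG islands, fell from 946 and 862 to 717 and 594 (-0.47). L3mbtl2, a subunit of the PCGF6 form, changed by 0.23, a call lost under quantile scaling (0.19) and without control replicate 2 of day 0 (0.14) or of day 7 (0.18), and in a fit of the 4 libraries alone (adjusted p = 0.0906). The PR-DUB partner Asxl2 had levels of 600 and 556 at day 0, 1017 and 1022 at day 1, 1353 and 1467 at day 3, 1591 and 1395 at day 5, and 1467 and 1436 at day 7. It rose at day 1 (0.82, SE 0.086, adjusted p = 9.642e-07) and at day 3 (0.47, adjusted p = 0.000524), and Asxl1 rose by 0.42 to day 7.

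**Figure D4:**
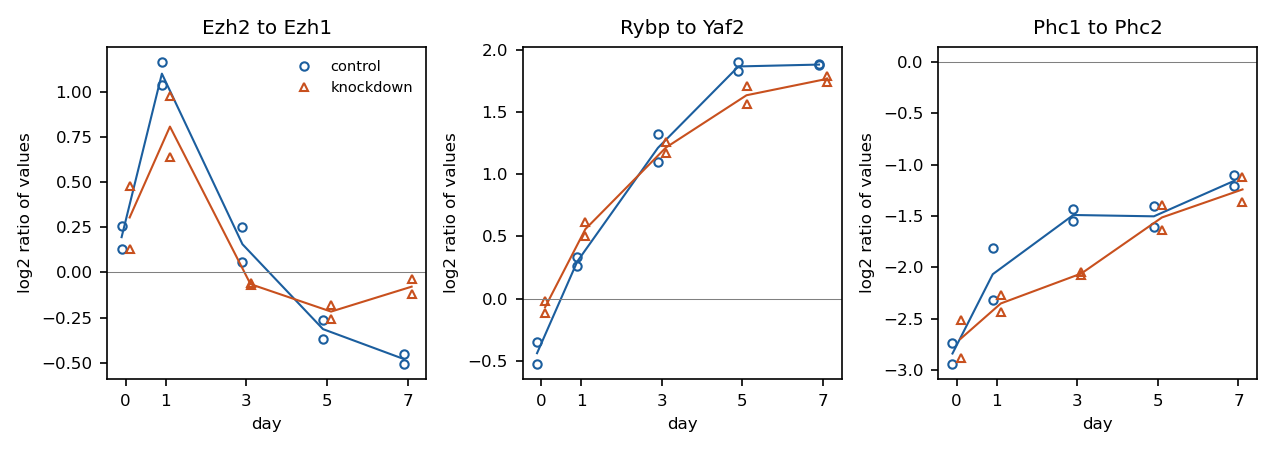
Log2 ratio of paralogous Polycomb genes within each library against the day of reprogramming, for Ezh2 to Ezh1, Rybp to Yaf2 and Phc1 to Phc2; points are libraries and lines join the means of each arm. Ezh2 to Ezh1 peaks at day 1 in each arm and descends to day 7 in the control, while in the knockdown its mean goes from -0.22 at day 5 to -0.08 at day 7. Rybp to Yaf2 and Phc1 to Phc2 are higher at day 7 than at day 0 in each arm.

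The steps between later days held fewer calls. From day 1 to day 3 of the control arm 15 members differed, 9 higher and 6 lower (37.1% of all genes), and without either library of control day 3 the count was 9. It was 14 without control replicate 1 of day 1 and 11 without replicate 2. From day 3 to day 5 it was 13, 8 higher and 5 lower (31.3% of all genes), and 6 without control replicate 2 of day 3 or control replicate 1 of day 5. From day 5 to day 7, 0 of the 34 members differed by limma, 6 had an unadjusted p under 0.05, and 0.908% of all genes differed. In a fit of these 4 libraries alone, 3 members were called in that step (Mtf2 0.43, Rnf2 0.31 and Phc2 -0.30). The share of all genes called in that fit is not given here. By mean control level, 18 members were lowest at day 0. The highest mean fell at day 0 for 6 members, day 1 for 6, day 3 for 5, day 5 for 10 and day 7 for 7. The same counts were not made over all genes, so whether they are particular to the members was not tested.

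Divided by exon length (GENCODE vM21, GRCm38, all exons of a gene merged), the order of the members changed along the course. At control day 0 Rbbp7 had the highest mean level per kb (1340), ahead of Yaf2 (690), Rbbp4 (625) and Phc2 (541). At day 7 Rbbp7 still led (1704), now ahead of Suz12 (632), Rbbp4 (452) and Rnf2 (410). Jarid2 moved from rank 31 of 34 (27.6 per kb) to rank 9 (251 per kb), Mtf2 from rank 27 to 11, Ezh1 from 24 to 14, and Yaf2 from rank 2 to 13. On the same scale Ezh2 stood at 87.1 and Ezh1 at 68.2 per kb at day 0, and at 170 and 213 per kb at day 7. Suz12 exceeded Eed at day 0 (202 against 173 per kb) and more so at day 7 (632 against 165 per kb).

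Few Polycomb genes differed between the arms at any single day. The question of this arm, in the series title, is the role of Ddx10 in reprogramming. At day 0, 2 of the 34 members were called, both higher in the knockdown, beside 3.31% of all genes. Jarid2 had levels of 373 and 378 in the knockdown against 262 and 275 in the control (log2 difference 0.48, SE 0.099, adjusted p = 0.0177). Rybp had levels of 1252 and 1151 against 992 and 915 (0.33, SE 0.070, adjusted p = 0.0204). In both genes the arms did not overlap, as was the case for 23 members and for 50.3% of all genes. Neither call held throughout. The adjusted p of Jarid2 was 0.0764 without control replicate 1 of day 0, 0.103 without replicate 1 of the knockdown and 0.0530 without its replicate 2. That of Rybp was 0.103 without control replicate 2 and 0.191 without replicate 1 of the knockdown. In a fit of the 4 libraries alone they were 0.125 and 0.139. Eed, not called with all libraries, was called higher without replicate 2 of the knockdown, with a difference of 0.525.

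At day 1, 0 of the 34 members were called by limma, 7 had an unadjusted p under 0.05, and 0.146% of all genes were called. Without control replicate 1 of day 1 the count was 2 (Cbx6 0.80, Phf1 0.55), and without control replicate 2 it was 3 (Ring1 -1.52, Phc1 -0.67, Mtf2 0.57), so the count at this day moves with the control replicates that stood apart. At day 3 again 0 members were called, 6 had an unadjusted p under 0.05, and the share of all genes was 4.77%. The members with the smallest p were Ezh2 and Pcgf3. Ezh2 had levels of 971 and 994 in the knockdown against 1179 and 1230 in the control, a difference of -0.29 (95% interval -0.49 to -0.10, adjusted p = 0.0834). At that day 11 of 24 S phase genes and 16 of 24 genes of G2 and mitosis were lower in the knockdown, and 0 were higher; their part in the Ezh2 value was not tested. Phc1 had levels of 577 and 584 against 845 and 828 (-0.53, adjusted p = 0.141), and in a fit of the day 3 libraries alone it was called (adjusted p = 0.0118). Library weights called Ezh2 (-0.29, adjusted p = 0.0369) and Phc1 (-0.53, adjusted p = 0.0274). Jarid2 was called lower without control replicate 1 of day 3 (-0.46).

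At day 5 Jarid2, which had the largest rise in the control arm, was lower in the knockdown. Jarid2 had levels of 1563 and 1592 in the knockdown against 2385 and 2420 in the control, a log2 difference of -0.61 (SE 0.099, 95% interval -0.82 to -0.40, adjusted p = 0.00126). It was the only one of the 34 members called, beside 8.73% of all genes, while 7 had an unadjusted p under 0.05. The call held in all alternatives run, with differences from -0.63 to -0.59 and adjusted p up to 0.0193. The direction was opposite to that at day 0, when Jarid2 was higher in the knockdown. The arms did not overlap in 23 members, beside 56.5% of all genes. A negative difference was also seen in 23 members, Jarid2 included, and the median of the members was -0.08 against -0.01 for all genes. Rbbp7 had levels of 3850 and 3900 against 4885 and 4801 (-0.32, adjusted p = 0.0968) and Mtf2 of 758 and 802 against 1039 and 952 (-0.35, adjusted p = 0.182). In a fit of the day 5 libraries alone 4 members were called, Jarid2, Rbbp7, Mtf2 and Rbbp4 (-0.23). The share of all genes called in that fit is not given here. At the same day the sum of the epithelial markers was 10000 and 9765 in the knockdown and 20648 and 19241 in the control, with 5 of 10 lower. Of the fibroblast markers 5 of 10 were higher, and the sums were 126973 and 125646 against 106299 and 124261. Whether the Jarid2 level moved with the share of cells at each stage was not tested.

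At day 7, 0 members were called by limma, 6 had an unadjusted p under 0.05, and 6.17% of all genes were called. Ezh1 came nearest, with levels of 1263 and 1212 in the knockdown against 1685 and 1483 in the control (-0.35, 95% interval -0.57 to -0.13, adjusted p = 0.0570), followed by Phc2 with 2172 and 1914 against 1648 and 1728 (0.27, adjusted p = 0.0784) and Jarid2 with 2070 and 1887 against 2461 and 2411 (-0.30, adjusted p = 0.0927). The arms did not overlap in these 3 genes, as in 16 members and in 56.2% of all genes. Quantile scaling called Ezh1 and Jarid2, and a fit of the day 7 libraries alone called Ezh1, Jarid2, Mtf2, Cbx6 and Phc2. The shares of all genes called in those fits are not given here. Whether the higher counts are particular to the members can therefore not be told. Over the mean of all 5 days, 1 member was called, Scmh1 (0.16, SE 0.047, adjusted p = 0.0290), beside 17.8% of all genes. That call was lost when any of 8 libraries was left out (adjusted p up to 0.0638), and the count was 8 without control replicate 1 of day 1 and 3 without replicate 2.

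The effect of the knockdown was also averaged over the days. The 95% interval of this mean log2 difference was -0.14 to 0.04 for Ezh2, -0.17 to 0.03 for Ezh1, -0.05 to 0.19 for Eed, -0.15 to 0.09 for Suz12, -0.20 to 0.01 for Rbbp4 and -0.23 to -0.01 for Rbbp7 (adjusted p = 0.131). In PRC1 it was -0.05 to 0.23 for Rnf2, 0.02 to 0.25 for Bmi1 (adjusted p = 0.106) and -0.10 to 0.15 for Cbx2. It was wide for Ring1 (-0.56 to 0.07) and Cbx7 (-0.59 to 0.17), whose replicates were far apart. Several of these means were called when 1 library was left out. Among them was Rbbp7 without control replicate 1 of day 0 (-0.15). The cases that follow left out a library of day 1. Without control replicate 1 Rbbp4 was -0.14 (adjusted p = 0.0111), Rbbp7 -0.16 (adjusted p = 0.0118) and Rnf2 0.15 (adjusted p = 0.0480, against 0.09 with all libraries). Without control replicate 2 Ring1 was -0.38 (adjusted p = 0.0145, against -0.25), and without knockdown replicate 1 Bmi1 was 0.19 (adjusted p = 0.00879, against 0.14). Differences of opposite sign at different days cancel in this mean, as in Jarid2 (-0.18 to 0.01). Without control replicate 1 of day 3 the Jarid2 mean was -0.12 and called.

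The change from day 0 to day 7 ran in the same direction in the knockdown arm for most members. There 24 of the 34 members were called, 16 higher and 8 lower, beside 67.1% of all genes (36.2% higher and 30.9% lower). The libraries of the 2 days did not overlap for 32 members and for 85% of all genes. Jarid2 (2.39, adjusted p = 7.208e-12), Mtf2 (1.63), Suz12 (1.51), Ezh1 (1.14) and Asxl2 (1.07) rose, and Yaf2 (-1.44), Pcgf3 (-0.90) and Phc2 (-0.61) fell. Ezh2 rose by 0.76 (adjusted p = 2.498e-06), from 750 and 635 to 1229 and 1116, and Bmi1 by 0.77, from 784 and 719 to 1203 and 1375. Eed, with 954 and 723 at day 0 and 695 and 681 at day 7, was not called (-0.27, adjusted p = 0.0654). Without knockdown replicate 2 of day 0 it was called lower (-0.47, adjusted p = 0.00558), as it was with library weights (adjusted p = 0.0310).

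**Figure D5:**
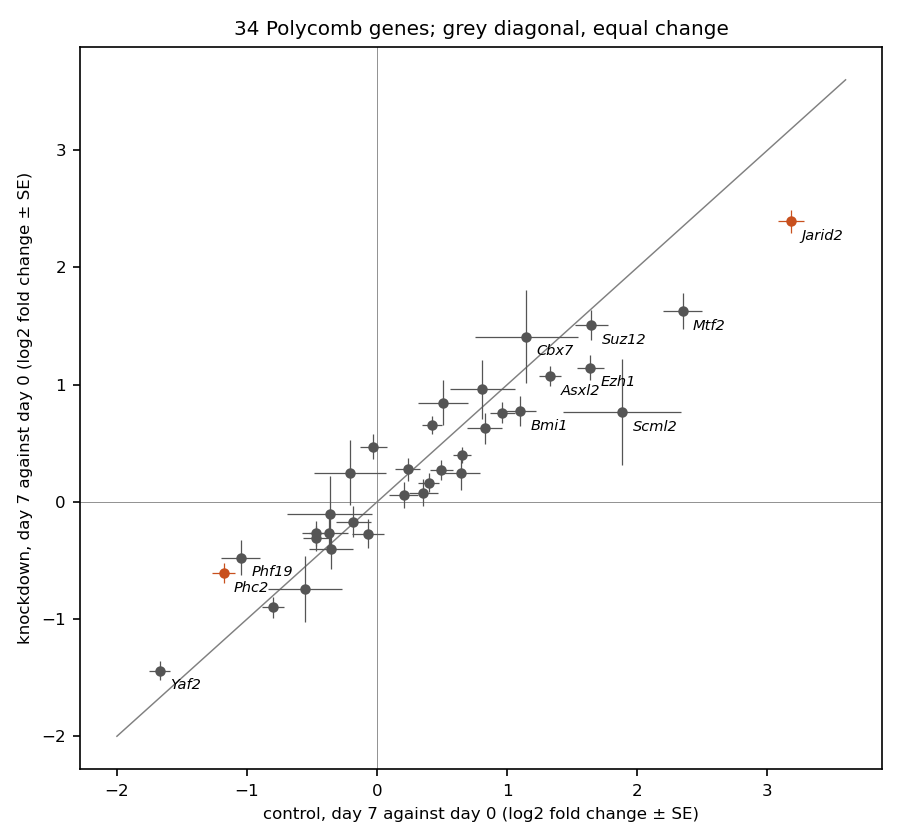
Log2 change from day 0 to day 7 in the control arm (x axis) and the knockdown arm (y axis) for the 34 Polycomb genes, with the line of equal change; coloured points are the genes whose difference between arms passed the test. Jarid2 lies below the line (3.18 against 2.39) and Phc2 above it (-1.18 against -0.61).

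The difference between these changes was tested directly. It was called for 2 of the 34 members, beside 6.38% of all genes. Jarid2 rose less in the knockdown, by -0.79 on the log2 scale (SE 0.14, 95% interval -1.09 to -0.49, adjusted p = 0.00559). Phc2 fell less in the knockdown, by a difference of 0.57 (SE 0.12, 95% interval 0.31 to 0.83, adjusted p = 0.0138). The Jarid2 call held without each of the 8 libraries in turn (-0.85 to -0.72, adjusted p up to 0.0396). The Phc2 call was lost without knockdown replicate 1 of day 0 (0.53, adjusted p = 0.0612), control replicate 1 of day 7 (0.54, adjusted p = 0.0667) or knockdown replicate 1 of day 7 (0.48, adjusted p = 0.0607). Ezh1 (-0.49), Scmh1 (0.50) and Mtf2 (-0.72) came close, with adjusted p of 0.0588, 0.0590 and 0.0596. With library weights all 3 were called (highest adjusted p = 0.0412), and without control replicate 2 of day 0 the Mtf2 difference was -0.93 (adjusted p = 0.0243). The Jarid2 value combines a difference between the arms of 0.48 at day 0 and of -0.30 at day 7. That of Phc2 combines a difference of -0.30 at day 0 and of 0.27 at day 7, neither of which was called in the reported fit. An F test of whether the knockdown effect differed among the 5 days called Jarid2 alone of the 34 members (F = 20.6, adjusted p = 0.00157), beside 6.76% of all genes. Without control replicate 1 of day 1 that count was 5, and without control replicate 2 it was 7, Jarid2 included in each.

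Other genes of the Polycomb pathway were followed through lists of partners, opponents and targets. Of 19 further Polycomb partners in the table, 7 were higher and 8 lower at control day 7 than at day 0, with a median of -0.04. These 15 calls, and those of the lists that follow, stand beside 72.3% of all genes. Mga, the scaffold of the PCGF6 form, rose by 1.99 and E2f6, another of its subunits, fell by -0.84. Of 11 genes of H2A deubiquitination, 6 were higher and 3 lower. Ogt, the glycosyltransferase that binds PR-DUB, had levels of 1631 and 1702 at day 0 and 12818 and 12195 at day 7 (2.91, SE 0.083), and Foxk1 fell by -1.14. The demethylase Kdm6a, which removes the PRC2 mark, rose from 492 and 462 to 1440.5 and 1392 (1.57), and of the 4 genes that remove or compete with the mark 3 were higher and 0 lower. Of 14 Trithorax genes, whose methyltransferases oppose Polycomb, 10 were higher and 0 lower, among them Kmt2a (1.06) and Ash1l (0.90). Of 18 subunits of the BAF remodeller 8 were higher and 4 lower, led by Smarca2 (1.76), so that 12 of 18 were called, a share near that of all genes. Of 50 developmental regulators known as Polycomb targets, 40 were in the table, and 22 of these were lower and 8 higher. Their 30 calls were again near the share of all genes, while their median was -1.32 against 0.09 for all genes. Every gene of the table reached a level of at least 7.6 in some library, so regulators silent throughout are not among the 40. The part of this selection in the median was not tested. Dlx2 dropped from 310 and 297 to 1.8 and 2.5, whereas Foxd1 rose from 260 and 327 to 2618 and 2633.

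Under the knockdown few of these genes were called. At day 5 Ogt was lower (8810 and 8158 against 11887 and 11517, -0.47, adjusted p = 0.00236), as it was at day 7 (9593 and 8483 against 12818 and 12195, -0.47, adjusted p = 0.00289). Its rise from day 0 to day 7 was smaller in the knockdown (difference -0.67, adjusted p = 0.00496). The same test called Kdm6a (-0.57), Mga (-0.72) and Arid2 (-0.47). Smarcd2, a BAF subunit, was lower in the knockdown at days 3, 5 and 7 (-0.30, -0.54 and -0.31). Of the 40 developmental regulators, 2 were lower at day 3, 2 were higher and 1 lower at day 5, and 2 were higher at day 7, beside 4.77%, 8.73% and 6.17% of all genes called at these days. Gata6, a regulator of endoderm, was higher in the knockdown at day 5 (0.75, adjusted p = 0.0153) and at day 7 (0.72, adjusted p = 0.0233), and at these days the libraries of the arms did not overlap, as in 56.5% and 56.2% of all genes. The knockdown calls for these lists share the control libraries with the Jarid2 result and are given side by side with it.

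The marker sums at the ends of the course stood as follows. At day 0 the fibroblast markers summed to 487673 and 517544 in the knockdown against 631432 and 598378 in the control, with 1 of 10 genes called, higher in the knockdown. At day 7 the epithelial markers summed to 14194 and 13390 against 23862 and 22073, with 3 of 10 lower, and the pluripotency markers to 8813 and 7842 against 7102 and 6487, with 1 of 12 higher. The median log2 difference of these 12 pluripotency markers was -0.40, opposite in sign to their sums, and at day 5 it was -0.63. Macrophage markers, of which 9 of 10 were in the table, summed to 2439 and 3618 at control day 0 and to 505 and 436 at control day 1. Of the pluripotency markers, Dppa4 and Utf1 were listed at 0 in both libraries at days 0 and 1 in each arm, Zfp42 at knockdown day 0, Lin28a there and at day 1 in each arm, Dppa5a at days 1 and 3 in each arm, Tdgf1 at control day 1 and Dppa4 at knockdown day 3. The epithelial marker Esrp1 was listed at 0 at days 0 and 1 of the knockdown. Of the macrophage markers, Tyrobp was listed at 0 at control days 1, 3, 5 and 7 and knockdown day 3, Fcer1g and C1qa at control days 3 and 7, and C1qb at control day 5. The part of these other cells in the levels of the Polycomb genes at day 0 was not tested.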

How the data were processed

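The authors deposited normalized read counts per gene, a signal on a linear scale, in 1 table of 15757 genes and 20 libraries. The submitters' processing notes list the mm10 build, the aligner STAR 2.5.2a, the read trimmer Trim Galore 0.4.4, DESeq2 1.22.0 and RSEM 1.2.22, without saying what each was used for. The normalization, the annotation, the gene filter and the handling of strand and of reads shared by paralogs are not given in the sources used here. The values are no whole multiples of a step (44.9 to 63.4% of low values, up to 20 steps, lay within 0.1 of one), so no count test was run. The estimate of about 12.0 to 23.7 M reads per library rests on that step and is therefore rough. Few reads limit the precision of low genes such as Scml2 and Cbx7.

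Values were taken as log2(value + 1), so fold changes of low genes are understated. A filter of at least 1 in at least 2 libraries removed 0 genes. All 20 libraries entered a limma 3.58.1 fit (R 4.3.3) with 10 group means and trended, robust empirical Bayes, with 10 residual and a median of 5.35 prior degrees of freedom. Adjusted p-values follow Benjamini and Hochberg over 15757 genes with a threshold of 0.05, and intervals are 95% intervals of the fit. The script was tested on simulated data. Fits also used quantile scaling, pseudocounts of 0.1 and 5, a filter of at least 10, a replicate block, library weights, only the libraries compared, and each library left out. Each share of all genes printed beside a count belongs to the reported fit of all 20 libraries.

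Full values are given for Ezh2, Ezh1, Eed, Suz12, Rnf2, Ring1, Bmi1, Cbx7 and Cbx2 and for up to 8 called members per comparison with libraries that do not overlap and the smallest p. Of the other lists up to 4 called genes per comparison are named. Some genes that this rule gives are not reported here. The members and lists were chosen with earlier results of these data known.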

Additional observations from a re-analysis of the deposited data

Results flagged for a closer look

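In 3 results the effect of the knockdown differed between days or the change over the days differed between the arms, by a test of the difference itself (limma). The rise of Jarid2 from day 0 to day 7 was smaller in the knockdown (adjusted p = 0.00559), with levels of 262 and 275 going to 2461 and 2411 in the control and 373 and 378 going to 2070 and 1887 in the knockdown. The knockdown effect on Jarid2 differed among the 5 days (adjusted p = 0.00157), from 0.48 at day 0 to -0.61 at day 5. The fall of Phc2 from day 0 to day 7 was smaller in the knockdown (adjusted p = 0.0138), with levels of 3849 and 3797 going to 1648 and 1728 in the control and 3029 and 3199 going to 2172 and 1914 in the knockdown. That call was lost without knockdown replicate 1 of day 0, control replicate 1 of day 7 or knockdown replicate 1 of day 7 (adjusted p up to 0.0667).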

How the results depend on the processing

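Numbers below are counts of the 34 members called, unless stated. The shares of all genes called in these fits are not given here, so a shift in a count may be shared by all genes. Quantile scaling gave 2 at day 7 (0 in the reported fit), 2 for the mean of days (1) and 2 for the differences among days (1). It also reversed the direction of Rbbp4 from day 0 to day 7 in the knockdown arm (log2 0.058, adjusted p = 0.658, against -0.27 in the reported fit). Pseudocount 5 gave 2 for the mean of days, as did the filter of at least 10. Library weights gave 2 at day 3 (0), 2 at day 5 (1), 5 at day 7, 8 for control day 3 against day 1 (15), 4 for control day 7 against day 5 (0), 5 for the difference between arms (2) and 3 for the differences among days. Fits of only the libraries compared gave 0 at day 0 (2), 1 at day 3, 4 at day 5, 5 at day 7, 14 for control day 1 against day 0 (21), 5 for control day 3 against day 1, 3 for control day 7 against day 5 and 4 for the difference between arms. The cause of these shifts was not tested. With each library left out in turn, counts ranged from 0 to 2 at day 0, 0 to 3 at day 1, 0 to 1 at day 3, 1 to 1 at day 5, 0 to 0 at day 7 and 0 to 8 for the mean of days. They ranged from 17 to 22, 9 to 14, 6 to 9 and 0 to 0 for the 4 control steps, from 21 to 24 and 19 to 21 for day 7 against day 0 in the control and the knockdown, from 1 to 3 for the difference between arms and from 1 to 7 for the differences among days. A group left with 1 library was assumed to vary like the others. With the replicate number as a block the count for the knockdown arm from day 0 to day 7 was 23 (24), and the calls of Ring1 for control day 3 against day 1 and of Pcgf5 in the knockdown arm were lost. The differences between replicates 1 and 2 correlated between arms by -0.05 to 0.08 over all genes. This gives no sign that replicate numbers pair the samples. With 1 such difference per arm and day it cannot exclude pairing, and the labels do not state it.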
